A study of Mus musculus with 16 samples.

Results

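Serpins are a family of proteins, most of which inhibit proteases, and the data described here are the transcript levels of 7 of them in a mouse muscle: Serpinb1a, Serpinb6a, Serpinb6b, Serpina3n, Serpine2, Serpinf1 and Serpinh1. They were taken by symbol from the 29730 genes of the count table, and all 7 passed the filter on low counts. They were selected on measured values, since their levels in the groups of this same count table were known when they were chosen, so their levels and group differences are a description, and whether a member was called is stated only to place it in the table and is no evidence for it. The tissue was the tibialis anterior, which lies along the shin, from 16 male C57BL/6N mice aged 7 weeks. Divided by genotype and treatment, they formed 4 groups of 4: WT_PBS (wild type, phosphate-buffered saline), WT_ASO (wild type, antisense oligonucleotide ASO1), KO_PBS (Bin1mck-/-, saline) and KO_ASO (Bin1mck-/-, ASO1). According to the title of the series, ASO1 lowers Dnm2 and the Bin1mck-/- mice model recessive centronuclear myopathy, a disease of muscle fibres. The mck in the name of the line is the usual short name of the muscle creatine kinase promoter, which is active in muscle fibres, so cells of other types in the same muscle may keep an intact Bin1 gene. The sources used here give neither the deleted part of the gene nor the dose or schedule of ASO1. Nothing in the labels ties a replicate number to a litter or a day.

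An inhibitory serpin offers an exposed loop as bait. The protease cuts the loop, the serpin changes shape, and the protease is trapped in an inactive complex, so each serpin molecule is used once. Members of the B group lack a classical signal peptide and act mostly inside cells, where they protect the cell from its own granule proteases. The A, E, F and G groups are mostly secreted, and Serpinf1 and Serpinh1 have lost protease inhibition and do other work.

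Libraries held 27591900 to 40862854 counts. Levels are CPM (read counts relative to the library total) after TMM scaling, which uses a trimmed mean of M values, and RPKM divides these by the summed exon length in kilobases. Differences are log2 fold changes (log2FC) with their standard error (SE) from edgeR's quasi-likelihood fit over 14960 genes, and a gene is called at an adjusted P value under 0.05. Bin1, the deleted gene, was 3.46 lower on the log2 scale in KO_PBS than in WT_PBS, and Dnm2 was lower by 1.34 in KO_ASO than in KO_PBS and by 1.13 in WT_ASO than in WT_PBS, so the libraries carry the genotype and treatment of their labels. The 6 muscle fibre markers, which include Acta1 and Ckm, together made up 109729 to 246170 CPM of each library, so the tissue was muscle.

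Promoters were available for 12 of the 16 serpins that passed the filter. Serpinb1a, Serpina3m and Serping1 were among those without one. The 2 shown are the bases just upstream of the RefSeq start (GRCm38.p6, forward strand) of Serpinb8, whose profile over the mice was among the closest to that of Serpinb1a, and of Serpina3n, whose knockout mice ranged from 1.15 to 42.7 CPM. Capitals mark the letters TGANTCA, read by AP-1, in Serpinb8 (chr1:107589756-107590005) and GGG and TTTCC with any 2 bases between them, read by NF-kB, in Serpina3n (chr12:104406458-104406707).
Serpinb8: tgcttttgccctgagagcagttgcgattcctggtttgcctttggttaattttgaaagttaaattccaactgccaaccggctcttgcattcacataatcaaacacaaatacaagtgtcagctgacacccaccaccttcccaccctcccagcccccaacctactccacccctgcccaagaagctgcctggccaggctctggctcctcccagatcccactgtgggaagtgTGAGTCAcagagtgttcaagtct
Serpina3n: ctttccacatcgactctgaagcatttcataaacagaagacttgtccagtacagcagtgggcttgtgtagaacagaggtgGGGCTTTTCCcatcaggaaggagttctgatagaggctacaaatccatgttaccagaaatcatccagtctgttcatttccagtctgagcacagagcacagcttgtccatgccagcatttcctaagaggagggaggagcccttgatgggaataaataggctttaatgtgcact
Matches were sought on both strands. Among the 12, Serpinb8 alone held the AP-1 letters, starting at position −23 from its start, as did 6.75% of all 32851 promoter windows. Serpina3n alone held the NF-kB letters, starting at position −171, as did 1.41% of the windows. The letters TTCNNNGAA, read by STAT factors, lay in 1 window of Serpinb6a and in both windows of Serpina3f, as in 7.02% of all windows. Serpine2 held 6 copies of the GC box GGGCGG, which 32.7% of windows hold at least once. These matches describe the letters of the windows and nothing about occupancy.

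Serpinb1a (chr13:32842092-32851185, minus strand) encodes an intracellular inhibitor of neutrophil elastase, proteinase 3 and cathepsin G. It measured 2.66, 5.51, 4.12 and 3.84 CPM in the 4 WT_PBS mice and 3.44, 3.15, 5.46 and 4.42 CPM in the WT_ASO mice. In KO_PBS it measured 74.2, 35.4, 37.9 and 40.8 CPM. In KO_ASO it measured 8.17, 9.43, 11.0 and 13.6 CPM. Both wild-type groups overlapped, every KO_ASO mouse lay above all 8 wild-type mice, and every KO_PBS mouse lay above all KO_ASO mice. KO_PBS was higher than WT_PBS by a log2FC of 3.55 (SE 0.28), or 11.7-fold, and KO_PBS replicate 1 was far above the other 3 mice. Without that mouse the log2FC was 3.25. KO_ASO was lower than KO_PBS by 2.16 on the log2 scale (SE 0.26) and its mean was 22.4% of the KO_PBS mean. Against WT_PBS it was still higher by 1.39 (SE 0.27), and against WT_ASO by 1.36 (SE 0.27). Neither of these differences was called in the edgeR fit of all 16 mice. Both were called by DESeq2 and by edgeR without KO_PBS replicate 1, and the one against WT_ASO also without TMM scaling. The treatment effect differed between the genotypes by −2.20 on the log2 scale (SE 0.38), which was called, but was no longer called without WT_PBS replicate 4 or without the filter on low counts. The WT libraries held 91 to 180 reads of the gene each, so the low levels rest on counts well above 0. The neighbouring Serpinb1c, on the same strand, lies 30.2 kb from the 5′ end of Serpinb1a, and 2.81% of the 50-base windows of the Serpinb1a transcripts also occur in Serpinb1 relatives.

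**Figure D1:**
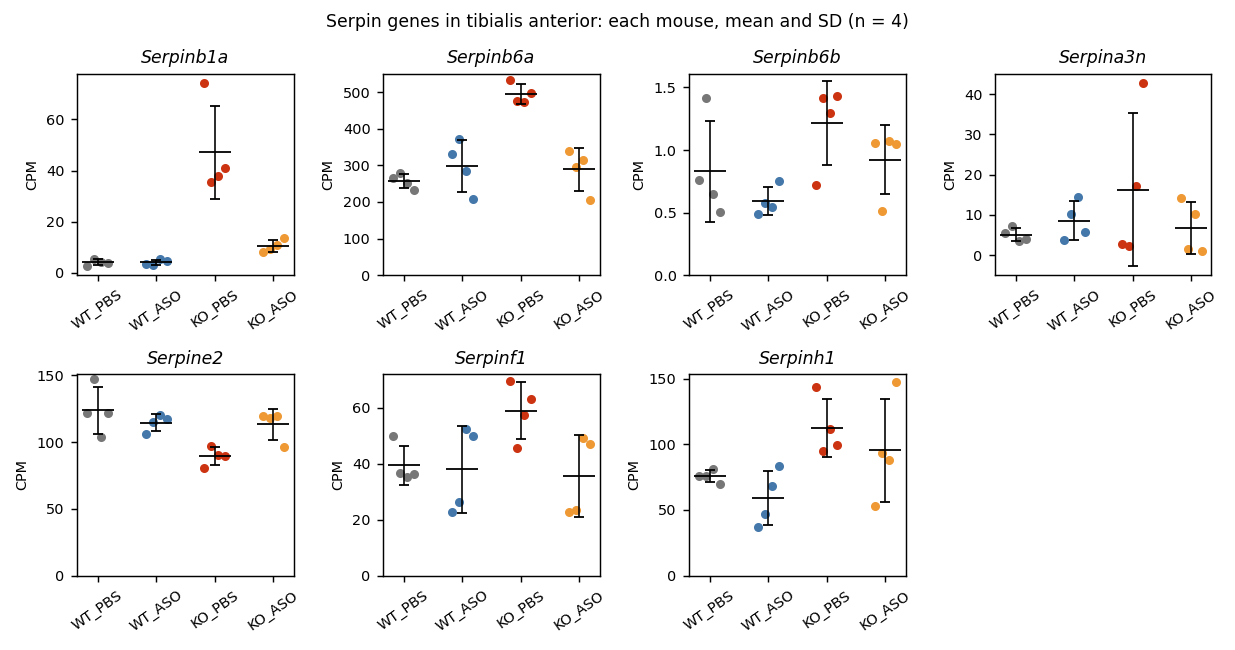
Levels of the 7 serpins in CPM (linear axes), with 1 point per mouse, a horizontal line at the group mean and bars of 1 SD (n = 4). Serpinb1a stands at 35.4 to 74.2 CPM in KO_PBS and at 8.17 to 13.6 CPM in KO_ASO, against 2.66 to 5.51 CPM in the wild-type groups, and Serpina3n runs from 2.27 to 42.7 CPM in KO_PBS.

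Serpinb6a (chr13:33917918-34002794, minus strand) encodes an intracellular inhibitor of trypsin-like proteases and cathepsin G, and was the serpin with the highest level per length. Its levels were 266, 279, 253 and 232 CPM in WT_PBS and 332, 373, 285 and 207 CPM in WT_ASO. KO_PBS had 533, 475, 474 and 497 CPM, and no mouse of the other groups reached the lowest of these. KO_ASO had 340, 295, 316 and 205 CPM and overlapped both wild-type groups. The KO_PBS level was 1.92-fold the WT_PBS level (log2FC 0.94, SE 0.16), and KO_ASO was lower than KO_PBS by 0.78 on the log2 scale (SE 0.16). The difference of treatment effects was −0.99 (SE 0.23). It was not called in the main edgeR fit of all 16 mice. It was called by DESeq2 and by edgeR without TMM scaling, with the replicate number as a block, or without WT_ASO replicate 4. The gene overlaps Nqo2, Ripk1 and 1110046J04Rik on the plus strand, and no source used here states whether the counting used the strand. The partners had far fewer reads, with mean counts of 1213, 180 and 69.2 against 11746 for Serpinb6a. The means of 1110046J04Rik were 1.39 CPM in WT_PBS, 1.46 in WT_ASO, 3.37 in KO_PBS and 1.59 in KO_ASO, highest in KO_PBS like those of Serpinb6a. In the same order, Nqo2 had 35.8, 33.3, 38.6 and 32.0 CPM and Ripk1 4.89, 4.84, 5.53 and 5.53 CPM. Whether reads were shared across the strands was not tested.

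Serpinb6b (chr13:32965209-32979067) is a close relative of Serpinb6a and was near the floor of detection, with 15 to 58 reads per library. Its mean was 0.831 ± 0.403 CPM in WT_PBS, 0.592 ± 0.112 in WT_ASO, 1.21 ± 0.337 in KO_PBS and 0.922 ± 0.274 in KO_ASO (SD, n = 4). All 4 groups overlapped. The log2FC of KO_PBS against WT_PBS was 0.57 (SE 0.32) and that of KO_ASO against KO_PBS was −0.40 (SE 0.32). Neither was called.

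Serpina3n (chr12:104406729-104414329) encodes a secreted inhibitor of cathepsin G and granzyme B that is known as an acute phase protein. Its levels were 5.56, 7.15, 3.50 and 4.09 CPM in WT_PBS and 3.70, 10.2, 14.5 and 5.75 CPM in WT_ASO. They were 2.89, 2.27, 17.2 and 42.7 CPM in KO_PBS and 14.3, 1.47, 10.2 and 1.15 CPM in KO_ASO. Each knockout group held 2 mice below every WT_PBS mouse and 2 mice above every WT_PBS mouse. The KO_PBS mean was 16.3 CPM, and its log2FC of 1.69 (SE 0.92) against WT_PBS was 0.59 without KO_PBS replicate 4. That mouse also had the highest summed macrophage markers, at 358 CPM against 119 to 200 in the other KO_PBS mice, and the highest summed neutrophil markers, at 8.83 CPM against 0.731 to 2.04. KO_PBS replicate 3 and KO_ASO replicate 1, which also had high Serpina3n, had macrophage sums of 119 and 52.5 CPM and neutrophil sums of 0.731 and 0.434 CPM. The part of these cells in the Serpina3n level was not tested.

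Of 13164 protein-coding genes compared over the 16 mice, the 2 with the profiles most like Serpina3n were Serpina3f and Serpina3m, from the same cluster on chromosome 12, with mean absolute differences of 0.42 and 0.49 log2 units after centring. Serpina3f had 45 reads in KO_PBS replicate 4 and 23 in replicate 3, and 0 in replicates 1 and 2. Serpina3m had 53, 33, 3 and 0 reads in the same 4 mice. In KO_ASO both were at 0 in replicates 2 and 4, where Serpina3n was lowest. Serpina3m ends 12.5 kb upstream of Serpina3n, and Serpina3f ends 186 kb upstream. Of the 50-base windows of Serpina3n, 6.90% also occur in its relatives, and of those of Serpina3m 19.1%, and reads from such windows cannot be told apart between copies. Their part in the shared pattern was not tested.

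**Figure D2:**
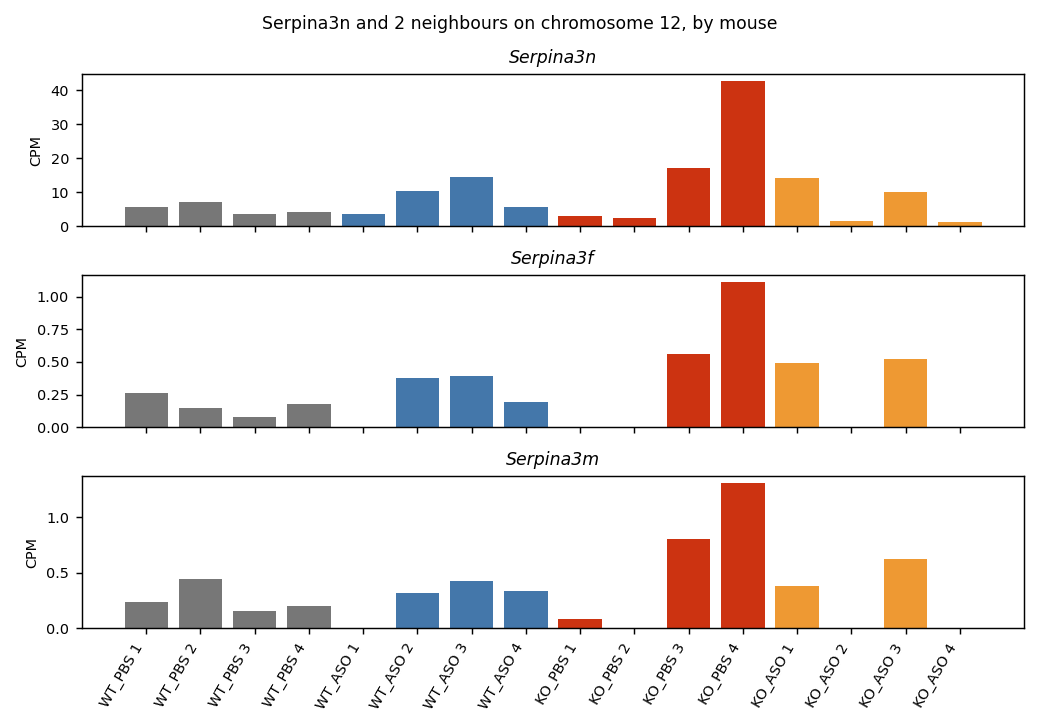
Serpina3n, Serpina3f and Serpina3m in CPM (linear axes that start at 0), with 1 bar per mouse coloured by group. In KO_PBS the bars of replicates 3 and 4 stand above those of replicates 1 and 2 for each gene, and in KO_ASO those of replicates 1 and 3 above those of replicates 2 and 4.

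Serpine2 (chr1:79794197-79861180, minus strand) encodes protease nexin-1, a secreted inhibitor of thrombin, urokinase and plasmin. It was the member that was lower in the untreated knockout. WT_PBS had 122, 147, 104 and 122 CPM, WT_ASO 106, 115, 121 and 117 CPM, KO_PBS 80.5, 97.0, 90.6 and 89.7 CPM and KO_ASO 120, 118, 120 and 96.2 CPM. Every KO_PBS mouse lay below every wild-type mouse, by a log2FC of −0.47 (SE 0.10) against WT_PBS, while KO_ASO replicate 4 fell within the KO_PBS range. KO_ASO was higher than KO_PBS by 0.34 (SE 0.10). This was not called in the edgeR fit of all 16 mice. It was called by DESeq2, by edgeR without WT_PBS replicate 2, and by edgeR without KO_ASO replicate 4, where it was 0.41.

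Serpinh1 (chr7:99345376-99353239, minus strand) encodes HSP47, a chaperone of the endoplasmic reticulum that binds newly made collagen. It measured 75.9, 76.1, 81.3 and 69.8 CPM in WT_PBS and 37.3, 47.0, 68.1 and 83.6 CPM in WT_ASO. It measured 143, 95.1, 112 and 99.1 CPM in KO_PBS and 52.9, 93.2, 87.9 and 148 CPM in KO_ASO. KO_PBS and WT_PBS did not overlap, with a log2FC of 0.57 (SE 0.27) that was not called in the fit of all groups and was called when those groups were fitted alone. Both ASO groups spread more widely than both saline groups, with a lowest-to-highest ratio of 2.24 in WT_ASO and 2.79 in KO_ASO, against 1.16 in WT_PBS and 1.51 in KO_PBS.

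Serpinf1 (chr11:75409769-75422701, minus strand) encodes pigment epithelium-derived factor, a secreted protein that acts through receptors and restrains vessel growth. It measured 49.9, 36.6, 35.1 and 36.4 CPM in WT_PBS and 22.9, 26.4, 52.5 and 49.8 CPM in WT_ASO. It measured 69.4, 45.6, 57.3 and 63.1 CPM in KO_PBS and 22.6, 23.5, 49.2 and 47.1 CPM in KO_ASO. KO_PBS lay at log2FC 0.58 (SE 0.30) from WT_PBS, and KO_ASO at −0.73 (SE 0.30) from KO_PBS. Neither was called in the fit of all 16 mice, and the first was called with the compared groups alone. In each ASO group replicates 1 and 2 stood at less than the level of replicates 3 and 4, with a gap between the pairs. Of the 4 genes listed as its receptors, 1 was called higher in KO_PBS than in WT_PBS, beside 7.43% of all genes. This was Plxdc2 (log2FC 0.63, edgeR adjusted P value 0.00774). The laminin receptor gene Rpsa was not called (log2FC 0.25) and had low means of 2.38 CPM in WT_PBS and 2.84 CPM in KO_PBS.

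The list of 31 collagen genes and collagen-folding genes split the ASO mice in the same way. Its summed level was 1472, 1919, 3113 and 3548 CPM in WT_ASO and 1604, 1814, 3439 and 3693 CPM in KO_ASO, against 2424 to 2759 CPM in WT_PBS and 2810 to 4187 CPM in KO_PBS. Serpinf1 was at most 26.4 CPM in the 4 ASO mice with the lowest sums and at 47.1 CPM or more in the other 4. Serpinh1 followed the sums in WT_ASO, while in KO_ASO replicate 2 had a low sum and 93.2 CPM of Serpinh1. Of the 30 list genes tested, 1 was called higher and 1 lower in KO_PBS than in WT_PBS, beside 7.43% and 5.12% of all genes: P3h2, a prolyl 3-hydroxylase of collagen (log2FC 1.45, edgeR adjusted P value 0.00443), and Mia3, an export factor for collagen (log2FC −0.37, edgeR adjusted P value 0.0221). The call of Mia3 was lost without WT_PBS replicate 2 or 4 or KO_PBS replicate 1, and without TMM scaling. Col5a2, a fibrillar collagen chain, and P3h3 were not called, and were called higher by DESeq2, without TMM scaling and with the compared groups alone. The median of the list was 0.38, beside −0.01 over all genes.

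**Figure D3:**
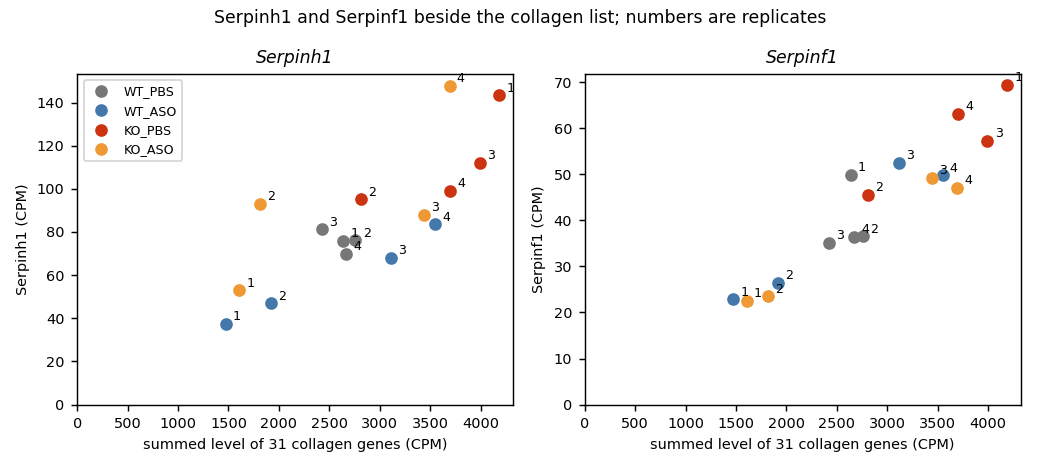
Serpinh1 (left) and Serpinf1 (right) in CPM against the summed CPM of 31 collagen and collagen-folding genes, with 1 point per mouse, coloured by group and numbered by replicate (linear axes from 0). Replicates 1 and 2 of both ASO groups have the 4 lowest sums, 1472 to 1919 CPM, and the 4 lowest Serpinf1 levels, 22.6 to 26.4 CPM.

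Per length, the order of the members was Serpinb6a, Serpinh1, Serpinf1, Serpine2, Serpina3n, Serpinb1a and Serpinb6b in WT_PBS, from a mean of 47.6 to 0.368 RPKM. The ranges of Serpinf1 and Serpine2 overlapped there, as did those of Serpina3n and Serpinb1a. In KO_PBS Serpinb1a, at 20.4 ± 7.91 RPKM (SD, n = 4), stood in the fourth place, with its range overlapping that of Serpinf1 and lying above that of Serpine2. In KO_ASO it was at 4.59 ± 1.02 RPKM and again below Serpine2, and its range overlapped that of Serpina3n.

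Of the 7 members, 3 were called between KO_PBS and WT_PBS, 2 higher and 1 lower, where 12.6% of all 14960 genes were called, 7.43% higher and 5.12% lower. Serpinb1a, Serpinb6a and Serpinh1 in the higher direction and Serpine2 in the lower direction had groups that did not overlap, as did 10.5% and 9.85% of all genes. Between KO_ASO and KO_PBS, Serpinb1a and Serpinb6a were called, both lower, and both had groups that did not overlap. Of all genes 3.64% were called, 2.83% lower, and 6.34% had non-overlapping groups with KO_ASO lower. Both comparisons share the KO_PBS mice, so a high value in those mice gives opposite signs in the 2 comparisons. Between WT_ASO and WT_PBS edgeR called 0 members, and 0 were under an unadjusted P value of 0.05, a level that 6.45% of all genes passed. DESeq2 also called 0 members. The share of all genes that edgeR called there was 0.00668%. Between KO_ASO and WT_PBS edgeR called 0 members, beside 0.0401% of all genes, and 1 was under an unadjusted P value of 0.05, as were 8.22% of all genes. DESeq2 called 1 member and 87 genes in all. Serpinb1a was the 1 member whose KO_ASO mice all lay above the WT_PBS mice, as for 2.38% of all genes. Between KO_ASO and WT_ASO edgeR called 0 members, beside 0.0735% of all genes, and 2 were under an unadjusted P value of 0.05, as were 15.1% of all genes. DESeq2 called 1 member and 402 genes in all. Here too the KO_ASO and WT_ASO mice did not overlap for Serpinb1a, which was higher, as were 2.96% of genes. In the difference of treatment effects Serpinb1a alone was called, where 0.575% of genes were. Under an unadjusted P value of 0.05 in edgeR were 3 members for KO_PBS against WT_PBS, 4 for KO_ASO against KO_PBS and 3 for the difference of effects. Of all genes 27.3%, 17.7% and 12.7% passed that level. The members were chosen with their levels known, so all counts under an unadjusted P value are a description and no evidence.

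**Figure D4:**
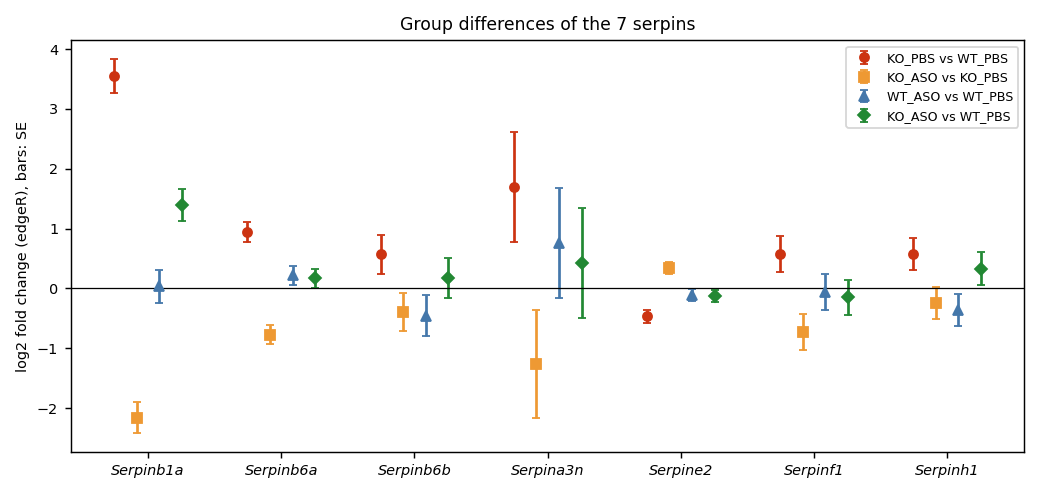
The log2 fold changes of the 7 serpins (y axis) in 4 comparisons, with bars of 1 SE from the edgeR fit. Serpinb1a lies at 3.55 in KO_PBS against WT_PBS and at 1.39 in KO_ASO against WT_PBS, Serpine2 lies at −0.47 in the first of these, and the bars of Serpina3n are the widest.

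The table held 46 further serpin genes, of which 9 passed the filter and 37 had too few reads. These 9 were tested with edgeR. In KO_PBS against WT_PBS 4 were called, all higher, beside 7.43% of all genes, and 3 of these, Serpinb8, Serpinb1c and Serping1, are described here. Serpinb8, an intracellular inhibitor of the convertase furin, measured 1.05, 1.15, 0.519 and 0.903 CPM in WT_PBS, 1.31, 0.868, 0.911 and 1.11 CPM in WT_ASO, 21.2, 10.6, 8.61 and 11.1 CPM in KO_PBS and 4.32, 2.72, 1.52 and 2.13 CPM in KO_ASO. Its group order was that of Serpinb1a, with every KO_ASO mouse between the 8 wild-type mice and the 4 KO_PBS mice. Its log2FC was 3.84 (SE 0.36, edgeR adjusted P value 8.96e-06) in KO_PBS against WT_PBS and −2.26 (SE 0.32, edgeR adjusted P value 0.00118) in KO_ASO against KO_PBS. In KO_ASO against WT_PBS it was 1.58 (edgeR adjusted P value 0.171), which was called by DESeq2 (adjusted P value 0.00351). Against WT_ASO it was 1.36 (edgeR adjusted P value 0.109), called by DESeq2 (adjusted P value 0.00979). Both differences were also called by edgeR with the replicate number as a block (adjusted P values 0.00817 and 0.0336). Its treatment effects differed between genotypes by −2.48 (SE 0.49, edgeR adjusted P value 0.0356), a call that was lost without 12 of the 16 mice in turn, at adjusted P values of 0.0502 to 0.0896, and kept when the mouse left out was WT_ASO replicate 2, KO_PBS replicate 3 or 4 or KO_ASO replicate 1.

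Serping1, the inhibitor of complement C1, had a log2FC of 0.65 (SE 0.19, edgeR adjusted P value 0.0367) in KO_PBS against WT_PBS. The call was lost on leaving out any 1 of the 4 WT_PBS mice or KO_PBS replicate 1 or 4, and without the filter (adjusted P value 0.0877). Without KO_PBS replicate 4 the log2FC was 0.47, with an adjusted P value of 0.108. Serping1 was lower in KO_ASO, at 32.7 to 39.6 CPM, than in KO_PBS, at 44.0 to 84.9 CPM (log2FC −0.81, SE 0.19, edgeR adjusted P value 0.0313). This call was lost when KO_PBS replicate 1 or 4, or KO_ASO replicate 1, 2 or 3, was left out. It was also lost with the compared groups alone (adjusted P value 0.0563) and without the filter (adjusted P value 0.0651). Serpinb1c, a near relative of Serpinb1a, had a log2FC of 0.73 (SE 0.19, edgeR adjusted P value 0.0209), and the call was lost without WT_PBS replicate 3 or 4 or KO_PBS replicate 1. Its KO_ASO level of 2.12 to 3.36 CPM overlapped that of KO_PBS, 2.93 to 3.86 CPM. Serpinb9, which inhibits granzyme B, Serpini1, which encodes neuroserpin, and Serpina3c, Serpina3f and Serpina3m were not called in any of the 5 pairwise comparisons.

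**Figure D5:**
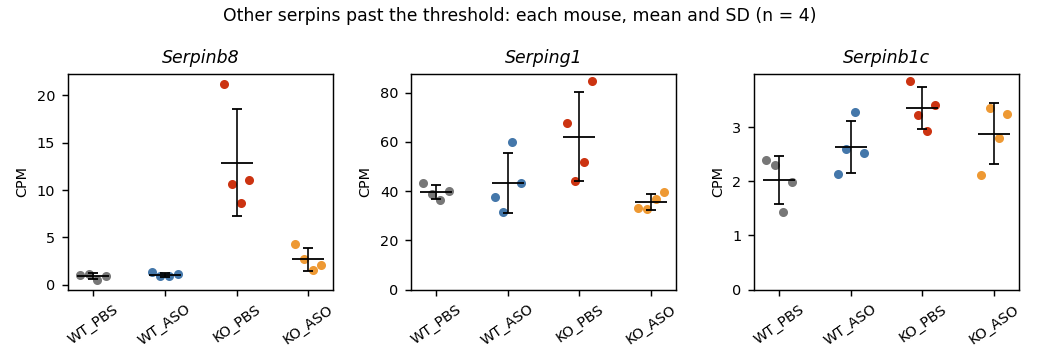
Levels in CPM of 3 other serpins that were called in KO_PBS against WT_PBS, with 1 point per mouse, a line at the mean and bars of 1 SD (n = 4, linear axes). Serpinb8 is at 8.61 to 21.2 CPM in KO_PBS and at 1.52 to 4.32 CPM in KO_ASO, and Serpinb1c overlaps between KO_PBS and KO_ASO.

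The 5 genes whose profiles over the 16 mice were most like that of Serpinb1a were Tubb6, a tubulin, with a mean absolute difference of 0.38 log2 units, Ahnak2 with 0.39, the macrophage gene Cd68 with 0.40, Serpinb8 with 0.42 and Hsf2bp with 0.42. Serpinb1a itself deviated from its own mean by 1.24 log2 units on average. The 10 macrophage markers were all called higher in KO_PBS than in WT_PBS, with a median log2FC of 1.72, beside 7.43% of all genes called, and 6 were called lower in KO_ASO than in KO_PBS, beside 2.83%. Their summed level was 45.6 to 74.4 CPM in WT_PBS, 47.6 to 103 CPM in WT_ASO, 119 to 358 CPM in KO_PBS and 49.0 to 74.9 CPM in KO_ASO. KO_PBS replicate 4, with the highest macrophage sum, had 40.8 CPM of Serpinb1a, and replicate 1, with 200 CPM of the markers, had 74.2. In KO_ASO Serpinb1a stayed above all wild-type mice while the macrophage sums lay within the wild-type range. Of the fibroblast markers, 7 of 9 were called higher in KO_PBS, beside 7.43% of all genes, and 4 lower in KO_ASO against KO_PBS, beside 2.83%. The lower call of Mfap5 was lost without the filter, with the compared groups alone, and on leaving out any 1 of the WT_PBS mice, 1 of KO_PBS replicates 1 and 4, or 1 of KO_ASO replicates 1, 2 and 3. The part of these cells in the serpin levels was not tested, and in whole muscle more cells of a type and more RNA per cell cannot be told apart. Of the 10 neutrophil markers, 2 passed the filter. In KO_PBS against WT_PBS S100a9 had a log2FC of 3.42 (edgeR adjusted P value 0.0945, DESeq2 adjusted P value 0.0255) and Csf3r of 1.57 (edgeR adjusted P value 0.144, DESeq2 adjusted P value 0.125). S100a8, S100a9 and Csf3r had 152, 156 and 108 reads over the 4 KO_PBS libraries, against 11, 12 and 32 over the WT_PBS libraries. KO_PBS replicate 4 alone held 77, 135 and 76 of these reads, while Ly6g and Mpo had 1 read each over all 16.

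Among the 12 listed granule proteases, 3 known targets of Serpinb1a or Serpinb9 had few reads, and Ctsg, the cathepsin G gene, had no row in the count table. Elane, which encodes neutrophil elastase, had 3 reads in all 16 libraries together, Prtn3 had 12 and Gzmb had 13. Gzmm had 2927 reads, and the mast cell genes Tpsb2, Mcpt4, Cpa3 and Cma1 had 530, 492, 400 and 364. These 5 of the list passed the filter and 1 was called in KO_PBS against WT_PBS, beside 7.43% of all genes called higher, the mast cell chymase Mcpt4 (log2FC 1.18, edgeR adjusted P value 0.0364). This call was lost without WT_PBS replicate 2, 3 or 4 or KO_PBS replicate 1, 3 or 4 (adjusted P values up to 0.111). It was also lost with the compared groups alone (adjusted P value 0.0564). Gzmm went the other way, with 802 reads over the WT_PBS libraries and 590 over the KO_PBS libraries. Gzmm was not called in the edgeR fit of all 16 mice. It was called lower by DESeq2 (log2FC −0.59, adjusted P value 0.0374) and by edgeR with the compared groups alone (adjusted P value 0.0387) or without WT_ASO replicate 4. For the proteases and cofactors of the plasmin and thrombin system, among them targets of Serpine2, 6 of 11 tested genes were called higher in KO_PBS, beside 7.43% of all genes, and 2, Anxa2 and Lrp1, were called lower in KO_ASO against KO_PBS, beside 2.83%. Both lower calls were lost with the compared groups alone, at adjusted P values of 0.0559 for Anxa2 and 0.0681 for Lrp1. The lower call of Lrp1 was also lost on leaving out 1 mouse, for KO_PBS replicates 1 and 4 and for KO_ASO replicates 1, 2 and 3. Its higher call was lost without the filter, and on leaving out any 1 of the WT_PBS mice or KO_PBS replicate 1 or 4. Anxa2 and S100a10, which bind plasminogen at the cell surface as a complex, had log2FC of 1.67 (SE 0.23, edgeR adjusted P value 2.90e-04) and 1.30 (SE 0.23, edgeR adjusted P value 0.00181). Among the acute phase genes Timp1, an inhibitor of metalloproteinases, was called in both comparisons, at log2FC 3.59 and −2.86, and was the 1 gene of 11 tested that was called in KO_PBS against WT_PBS, where 7.43% of all genes were called higher and 5.12% lower.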

How the data were processed

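Per the labels, tibialis anterior RNA was extracted with TRI Reagent and made into libraries with the TruSeq Stranded mRNA kit. The deposited table holds raw counts of reads for each Ensembl gene in 16 mice, without normalization by the authors. Tools listed in the submitters' processing notes are HTSeq 0.6.1p1, STAR 2.5.3a, Bowtie2 2.2.8 and cutadapt 1.10, with GRCm38 (mm10) as the build. How each was used, the read length and any use of the strand in counting are not stated there. All 29730 identifiers matched GENCODE M21, which gave symbols and coordinates. Promoter sequences were from RefSeq (GRCm38.p6).

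The counts were analysed with edgeR 4.0.16 in R 4.3.3 and DESeq2 1.42.0 as an alternative. Filtering with filterByExpr by group left 14960 genes. TMM scaling and a robust quasi-likelihood fit of all 16 samples, with 1 mean per group, were used, and the Benjamini-Hochberg method was applied to the P values. The SE was the size of the log2FC divided by the square root of F. The code was tested on simulated counts. The common biological coefficient of variation was 18.7%. Counting error alone falls with depth, and libraries held 27591900 to 40862854 counts. The labels name separate mice without giving litters, so P values measure the spread between these mice. The members, gene lists and tests were chosen with earlier results of these data known. The 7 members were named as the subject. Other serpins were named where called, or by level, except 1 that is not reported here, list genes by smallest P value (2 for each of KO_PBS against WT_PBS and KO_ASO against KO_PBS), and genes most like Serpinb1a and Serpina3n by mean absolute difference of centred log2 CPM (prior count 2). The genes Ly6g, Mpo, S100a8, S100a9, Csf3r, Elane, Prtn3, Gzmb and the 5 granule proteases that passed the filter were named after their values were seen. Alternatives were DESeq2, no TMM, no filter, the compared groups alone, a replicate block and leaving out each mouse.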

Additional observations from a re-analysis of the deposited data

Results flagged for a closer look

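Of 64 groups of 4 mice examined, 5 had a mouse that stood apart by Dixon's test at the 95% level, where chance gives about 1 in 20. In KO_PBS the highest Serpinb1a level was 74.2 CPM, with the next at 40.8. The lowest Serpinb6b level in KO_ASO was 0.511 CPM, with the next at 1.05. The lowest Serpine2 level in KO_ASO was 96.2 CPM, with the next at 118. The highest Serpinf1 level in WT_PBS was 49.9 CPM, with the next at 36.6. In KO_ASO the highest Serpini1 level was 5.02 CPM, with the next at 1.44. The treatment effect differed between genotypes for Serpinb1a, by −2.20 on the log2 scale, and for Serpinb8, by −2.48 (edgeR, adjusted P value 0.0356). Serpinb1a was a chosen member, so its difference is a description.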

How the results depend on the processing

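Fitted with DESeq2, calls among the members were 1 for KO_ASO against WT_PBS, 1 for KO_ASO against WT_ASO and 2 for the difference of treatment effects, and among the other serpins 1, 1 and 2. Over all genes DESeq2 called 1045 for KO_ASO against KO_PBS, 35 for WT_ASO against WT_PBS, 87 for KO_ASO against WT_PBS, 402 for KO_ASO against WT_ASO and 371 for the difference of treatment effects, where edgeR called 544, 1, 6, 11 and 86. Without TMM scaling members called were 1 for KO_ASO against WT_ASO and 2 for the difference of effects. Without the filter the other serpins called were 2 for KO_PBS against WT_PBS, 1 for KO_ASO against KO_PBS and 0 for the difference of effects, the members called for the difference of effects were 0, and all genes called for WT_ASO against WT_PBS were 3. With the compared groups alone the members called were 5 for KO_PBS against WT_PBS, with Serpinf1 and Serpinh1 gained, the other serpins called were 1 for KO_ASO against KO_PBS, and all genes called were 300 there and 2 for KO_ASO against WT_ASO. Of 24 pairs of mice with the same replicate number in different groups, 11 had deviations from their group means that correlated above 0.1 (range −0.0777 to 0.435). Between WT_ASO and KO_ASO the values were 0.408, 0.0128, 0.190 and 0.435. These values do not settle whether the numbers mark a shared source, which the labels do not give. The main fit did not pair the mice. It called 1878 genes for KO_PBS against WT_PBS, 544 for KO_ASO against KO_PBS and 86 for the difference of effects. The replicate block called 2322, 752 and 126. With the replicate block the members called for the difference of effects were 2, with Serpinb6a gained, Serpinb8 was called among the other serpins for KO_ASO against WT_PBS and against WT_ASO (1 call each, adjusted P values 0.00817 and 0.0336), Col5a2 and P3h3 were called higher for KO_PBS against WT_PBS, and all genes called were 2 for WT_ASO against WT_PBS and 44 for KO_ASO against WT_ASO. Leaving out 1 mouse at a time, members called ranged from 3 to 3 for KO_PBS against WT_PBS, 2 to 3 for KO_ASO against KO_PBS, 0 to 0 for WT_ASO against WT_PBS, 0 to 1 for each comparison of KO_ASO with a wild-type group and 0 to 2 for the difference of effects. For the other serpins the ranges were 1 to 4, 1 to 2, 0 to 0, 0 to 0 and 0 to 1. For all genes they were 997 to 2137, 208 to 831, 1 to 4, 4 to 11 against WT_PBS, 2 to 19 against WT_ASO and 23 to 102. Without TMM the median of all genes in KO_PBS against WT_PBS moved from −0.01 to 0.14, and the share of called genes that were higher from 59.2% to 88.2%. In KO_ASO against KO_PBS that share moved from 22.1% to 8.29%. The cause of these changes was not tested. Counts of 15 to 58 reads limit Serpinb6b.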

Other observations

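Of the 6 satellite cell and regeneration markers, 2 were called higher and 2 lower in KO_PBS than in WT_PBS, beside 7.43% and 5.12% of all genes. Myog, a factor of muscle differentiation, was higher (log2FC 2.70, SE 0.32, edgeR adjusted P value 6.89e-05) and Pax7, which marks muscle stem cells, was lower (log2FC −1.39, SE 0.22, edgeR adjusted P value 6.54e-04). Of the 6 muscle fibre markers 3 were called lower, beside 5.12% of all genes, among them Pvalb (log2FC −0.73, edgeR adjusted P value 0.0327, lost without WT_PBS replicate 2 or 4 or KO_PBS replicate 1, without TMM scaling, without the filter and with the compared groups alone), the calcium buffer of fast fibres, and Tnnt3 (log2FC −0.40, edgeR adjusted P value 0.0153, lost without KO_PBS replicate 1, at 0.0504, and without TMM scaling, at 0.0588), a troponin of fast fibres.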
